A study of Caenorhabditis elegans with 2 samples.

Results

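Binding of the zinc finger transcription factor LSY-2, measured by chromatin immunoprecipitation and sequencing, was examined at 8 genes of the heat shock response and of mitochondrial protein folding in Caenorhabditis elegans. The genes were chosen by name and known role. They were hsf-1, hsp-1, hsp-6, hsp-60, hsp-90, hsp-110, hsp-70 and hsp-16.2, and all 8 were found among the 19973 protein-coding genes of the 6 nuclear chromosomes. The samples were 2 biological replicates of whole L1 larvae of mixed sex, starved after bleaching. Both came from strain OP367, which carries the unc-119(tm4063) mutation on chromosome III and the transgene wgIs367. The protein pulled down was LSY-2 fused to eGFP, with LSY-2 given as the antibody target. There was 1 group and no second condition, no heat shock and no mitochondrial stress among the labels, so the values describe where LSY-2 lay and not a response. Whole animals were used, so the lists do not tell which cells a peak comes from.

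Cells meet unfolded protein with chaperones of several families. HSP70 proteins bind short exposed stretches and work with J proteins and nucleotide exchange factors, HSP90 acts later on near-native clients, and HSP60 with its small lid HSP10 encloses proteins imported into mitochondria. Heat shock factor HSF-1 binds inverted repeats of a short unit, the heat shock elements, and turns on cytosolic chaperone genes after heat, while stressed mitochondria call up hsp-6 and hsp-60 through another pathway, led by ATFS-1.

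The authors' thresholded list held 6850 peaks in the ce11 build and derived from both replicates. Longer lists, of 30000 regions down into the background, came from the pooled reads and from each replicate. A gene was given a peak when a summit fell in its promoter window, which reached 1000 bp before and 200 bp past the outermost 5′ end. The signal is the authors' value for each region, its scaling is not stated, and the pooled signals are larger than those of either replicate. The files do not state the depth, and counting errors could not be set.

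LSY-2 had a thresholded promoter peak at 4 of the 8 genes, hsp-1, hsp-6, hsp-60 and hsp-110, where 21.1% of all protein-coding genes had one. With each summit credited solely to the closest 5′ end, hsp-1 alone kept its peak, 1 of 8 against 16% of protein-coding genes. Each of the 4 had a signal above 1000, a level reached in the promoters of 2.6% of protein-coding genes. That level was not part of the plan and lies just below the weakest of the 4, hsp-6 at 1104, so the count is a description. hsp-90 had none in its window but carried the strongest peak of the set inside its first intron. hsf-1, hsp-70 and hsp-16.2 had none. At 3 of the 4 genes with a peak the summit lay between head-to-head neighbours, in the promoter windows of both and nearer to the neighbour. Which gene such a summit acts on was not tested. With 8 genes chosen as a set, no test over the list was made.

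The sequence under 3 of the strongest summits is shown because it holds facing pairs of heat shock units, and the gap between hsp-16.2 and hsp-16.41 because it holds such units without a thresholded peak. Each is on the strand of the named gene in ce11, and the summit is the middle base of the first 3. The fourth runs from the hsp-16.41 side to the hsp-16.2 side. An element of 3 units that starts at −224 bp from hsp-16.2 begins inside hsp-16.41, so its first unit is not shown. Capitals mark matches to GAANNTTC, TTCNNGAA or the TATA box TATAAA, searched on both strands, and the first pair of motifs can overlap by 1 unit.
hsp-60, chrIII:1619036-1619236, + strand: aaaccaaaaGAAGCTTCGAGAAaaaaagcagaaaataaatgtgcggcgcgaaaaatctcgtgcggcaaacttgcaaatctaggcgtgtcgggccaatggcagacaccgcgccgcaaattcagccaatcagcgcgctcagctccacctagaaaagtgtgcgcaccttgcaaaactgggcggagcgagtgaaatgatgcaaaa
hsp-110, chrIII:8447070-8447270, − strand: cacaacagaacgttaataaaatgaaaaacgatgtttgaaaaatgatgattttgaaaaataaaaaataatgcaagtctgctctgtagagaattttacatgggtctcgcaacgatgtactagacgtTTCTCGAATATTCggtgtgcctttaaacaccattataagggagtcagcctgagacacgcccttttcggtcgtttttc
hsp-90, chrV:14685670-14685870, + strand: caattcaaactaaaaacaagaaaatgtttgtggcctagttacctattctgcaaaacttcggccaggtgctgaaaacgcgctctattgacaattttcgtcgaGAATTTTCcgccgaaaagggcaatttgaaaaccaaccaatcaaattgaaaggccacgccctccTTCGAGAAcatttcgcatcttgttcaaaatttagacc
hsp-16.2, chrV:1804958-1805177, − strand: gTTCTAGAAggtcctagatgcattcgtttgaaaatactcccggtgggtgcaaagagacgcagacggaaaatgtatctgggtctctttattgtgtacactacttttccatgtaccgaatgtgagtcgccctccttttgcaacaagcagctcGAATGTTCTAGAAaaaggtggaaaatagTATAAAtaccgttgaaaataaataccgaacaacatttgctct

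The mitochondrial chaperonin gene hsp-60, on chromosome III from 1619742 to 1625803, had the strongest peak among the promoter windows. Its signal was 2309 in the pooled and thresholded lists, 1066 in replicate 1 and 1248 in replicate 2, which ranked it 189 of 6850. The peak spanned 1618925 to 1619333 and its summit at 1619136 lay at −606 bp, where negative is upstream. That summit is nearer to the neighbour on the other strand, Y22D7AL.10, at −207 bp from its 5′ end. RefSeq names Y22D7AL.10 as the mitochondrial 10 kDa heat shock protein, the lid of the HSP60 chamber, so 1 LSY-2 summit lay in the 812 bp gap between the genes of both chaperonin parts. A second and weak thresholded peak lay in an hsp-60 intron at 2834 bp, with a signal of 75.6, close to the lowest thresholded value of 68.8. It had 52.5 in replicate 1 and 27.6 in replicate 2. Another annotated 5′ end of hsp-60 lies at 1623128. From that end the summit of this weak peak lay at −552 bp, within a promoter window.

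The mitochondrial HSP70 gene hsp-6, on chromosome V from 4824124 to 4826760, had a signal of 1104, with 526 in replicate 1 and 573 in replicate 2. Its summit, at −407 bp, fell on the same base in both replicates. The peak spanned 4827003 to 4827343. C37H5.5, which RefSeq calls a nucleolar complex protein 3 homolog, starts on the other side of a 599 bp gap, and the summit lay at −193 bp from it. The summit also fell on exons of annotated non-coding RNAs of both strands, C37H5.15 and C37H5.16.

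Of the cytosolic chaperones, hsp-110, which encodes a nucleotide exchange factor of the HSP70 family, had a signal of 2073, with 1039 in replicate 1 and 1037 in replicate 2. Its gene spans 8443910 to 8446909 on chromosome III. The peak, from 8446983 to 8447341, had its summit at −261 bp. The 443 bp gap is shared with rpn-3, a proteasome regulatory subunit gene, whose 5′ end was nearer to the summit, at −183 bp.

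hsp-1, the constitutive cytosolic HSP70 gene on chromosome IV from 17278959 to 17281330, was the 1 gene of the 4 with a promoter summit of its own. The signal was 1317, with 649 in replicate 1 and 666 in replicate 2. The summit lay at −393 bp within a peak from 17278354 to 17278773. The upstream neighbour, clec-196, runs in the same direction and ends 1210 bp before hsp-1 begins, and a weak thresholded peak of 77.8 lay in a clec-196 intron at −1593 bp.

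hsp-90, the cytosolic HSP90 gene on chromosome V from 14684918 to 14688545, shows how much the choice of 5′ end matters. Its outermost 5′ end belongs to a transcript with a first exon of 126 bp, from 14684918 to 14685043, and no thresholded summit lay in that window. The pooled list had 1 region there with a signal of 15.7, and the replicate lists had none. A peak of 2703, with 1262 in replicate 1 and 1461 in replicate 2, had its summit at 852 bp, in the first intron of that transcript. A second annotated transcript starts at 14686160, the start of exon 2, and from that end the summit lay at −390 bp, much as at hsp-1 and hsp-6. The summit also lay at −285 bp from C47E8.4, a FAM50 homolog gene on the other strand, so it sat in the 674 bp between C47E8.4 and the second hsp-90 start. With any transcript's 5′ end allowed, 5 of the 8 genes had a peak, against 22.8% of protein-coding genes.

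**Figure D1:**
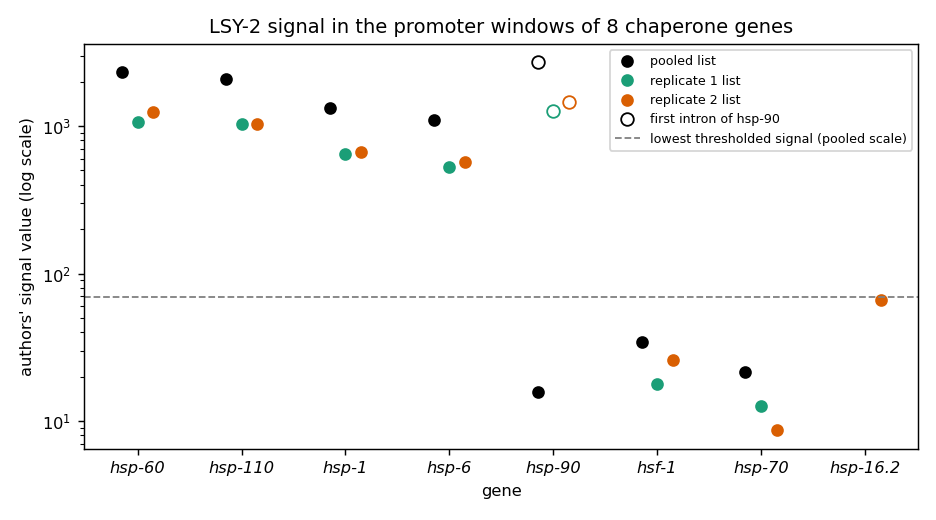
The authors' signal value on a log axis is plotted for each of the 8 genes, with the strongest region in the promoter window in the pooled list (black), replicate 1 (green) and replicate 2 (orange). Open circles are the peak in the first intron of hsp-90, and the dashed line is the lowest thresholded signal, 68.8 on the pooled scale. hsp-60, hsp-110, hsp-1 and hsp-6 sit between 1104 and 2309 in the pooled list, and the other genes have either a region of 34.1 or less there or none.

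The genes without a thresholded promoter peak differed in what the longer lists held. hsf-1, which encodes the heat shock factor and lies on chromosome I from 11953507 to 11963085, had a pooled region of 34.1 in its window at −87 bp, 17.8 in replicate 1 at −314 bp and 26.0 in replicate 2 at −31 bp. The pooled value lay below the lowest thresholded signal of 68.8, and the summits of the replicates fell at different places. Thresholded peaks lay farther upstream of hsf-1, at −1973 bp with a signal of 195 and at −2956 bp with 105. The nearer of them had 95.3 in replicate 1 and 99.2 in replicate 2, fell in no gene and in no protein-coding promoter window, and entered the hsf-1 window when that was lengthened to 2000 bp.

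hsp-70, a heat-inducible cytosolic HSP70 gene on chromosome I from 9320325 to 9322519, lies inside uggt-2 on the other strand. The pooled list had a region of 21.4 in its window at −61 bp, with 12.62 in replicate 1 and 8.64 in replicate 2. No thresholded summit lay in the gene or within 3000 bp of it. In all, 7 of the 8 genes had a pooled region in the window, where 37.7% of protein-coding genes had one, and the thresholded share is therefore the more selective measure.

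hsp-16.2, a heat-inducible small heat shock protein gene on chromosome V from 1804334 to 1804957, was the exception, with no pooled region and none in replicate 1. Replicate 2 alone listed a region of 65.9 there, at the highest −log10 q of that list, 4.21, and at rank 4612 of 30000. Its summit lay at −137 bp, in the 220 bp between hsp-16.2 and the divergent hsp-16.41. Of the 6850 strongest regions of replicate 2, 172, or 2.51%, overlapped no pooled region, and 105, or 1.53%, of those of replicate 1. The replicates thus disagreed at hsp-16.2, and with 2 replicates the value cannot be settled. The hsp-16 genes are close copies of each other, and how the authors placed reads that match several copies is not given in the sources used here.

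The 5 strong peaks, the intronic one at hsp-90 included, stood in the order hsp-90, hsp-60, hsp-110, hsp-1 and hsp-6, and both replicates gave the same order. They were stronger than 95.1% to 97.6% of thresholded peaks, whose median signal was 169, and all exceeded 548, the upper quartile of the 4216 genes with a promoter peak. For the 392 peaks of signal 1000 or more listed in both replicates, the SD of the log2 ratio between the replicates was 0.23. That SD describes 1 peak between replicates and not a difference between 2 peaks, so it is a rough guide here. hsp-90 stood above hsp-60 by 0.23 in log2, with 0.24 in replicate 1 and 0.23 in replicate 2, about the size of the SD. hsp-60 stood above hsp-110 by 0.15, below the SD, with 0.04 and 0.27 in the replicates. The step from hsp-110 to hsp-1 was larger, 0.65, or 1.57-fold, with 0.68 in replicate 1 and 0.64 in replicate 2, and was the 1 step that also exceeded the SD of 0.52 over all 6616 peaks. hsp-1 and hsp-6 differed by 0.25, with 0.30 and 0.22 in the replicates, about the size of the SD.

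The replicates agreed closely at these peaks. The thresholded list, which also holds the 392 strong peaks, was itself selected for agreement between these replicates. Close values are therefore partly built in. The log2 ratio of replicate 2 to replicate 1 was 0.21 at hsp-90, 0.23 at hsp-60, −0.0034 at hsp-110, 0.04 at hsp-1 and 0.12 at hsp-6, where the median over the 392 strong peaks was 0.11. Replicate summits lay within 13 bp of the thresholded summit at all 5.

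**Figure D2:**
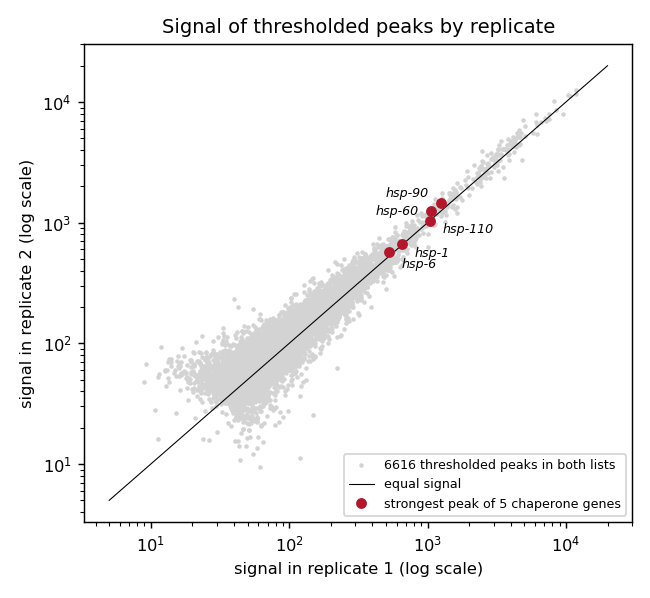
Each point is a thresholded peak with a region in both replicate lists, 6616 in all, with its signal in replicate 1 on the x axis and in replicate 2 on the y axis, both on log scales. The strongest peaks of hsp-90, hsp-60, hsp-110, hsp-1 and hsp-6, in red, lie close to the line of equal signal in the upper part of the cloud.

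Thresholded peaks of lower signal also lay just past the 3′ end of 4 of the 8 genes. A summit lay 160 bp past hsp-1 with a signal of 266, 248 bp past hsp-6 with 100.8, 115 bp past hsp-110 with 151 and 184 bp past hsp-90 with 137. That of hsp-1 was above the median thresholded signal of 169 and the others were below it. Within 500 bp past the 3′ end, 5.82% of protein-coding genes had such a summit, a distance chosen after the members' values were seen, so the count is a description. The summits of hsp-6, hsp-110 and hsp-90 lay in the promoter window of the next gene, adss-1, ufbp-1, and C47E8.11 with gasr-8. That of hsp-1 fell in the 3′ UTR of nra-1, which runs toward hsp-1.

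**Figure D3:**
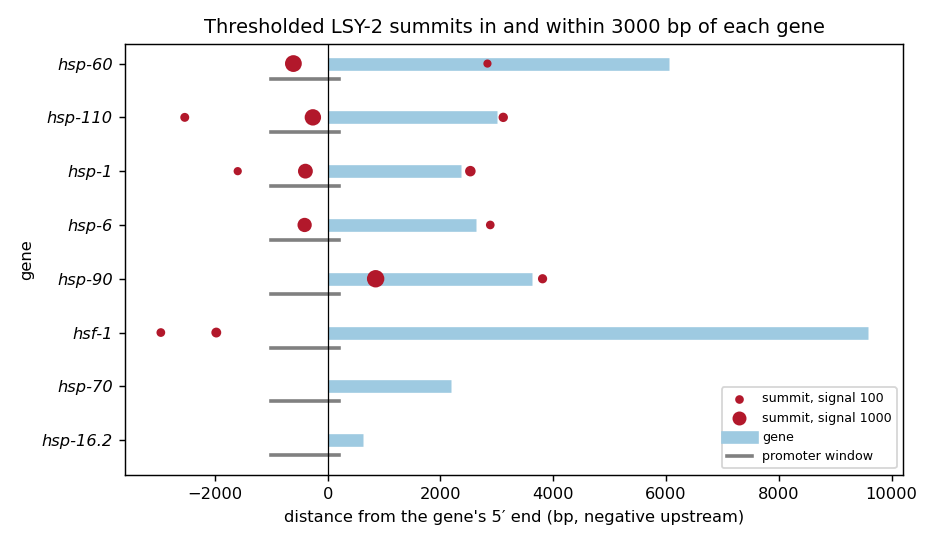
Thresholded LSY-2 summits (red, area growing with signal) are placed by their distance in bp from the outermost 5′ end of each gene, with the gene as a blue bar and the promoter window in grey. The large summits of hsp-60, hsp-110, hsp-1 and hsp-6 lie from −606 to −261 bp, that of hsp-90 lies at 852 bp inside the gene, and smaller ones follow the 3′ ends of hsp-110, hsp-1, hsp-6 and hsp-90.

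Heat shock elements were present at genes with and without an LSY-2 peak. With 3 units in a row, GAANNTTC overlapping TTCNNGAA by 1 unit in either order, 5 of the 8 genes had an element in the 300 bp before the 5′ end, against 1.92% of protein-coding genes. They were hsp-1 at −144 bp, hsp-90 at −85 and −15 bp, hsp-110 at −237 and −115 bp, hsp-70 at −73 bp and hsp-16.2 at −224 and −70 bp, each counted from the first base of the element. Of these 5, hsp-1 and hsp-110 had a thresholded promoter summit, counted from the outermost 5′ end. The hsp-90 elements also belong to its outermost 5′ end. The second hsp-90 start, at 14686160, is nearer to its intronic peak and had no such element in the 300 bp before it. Among all 383 genes with such an element, 100, or 26.1%, had a thresholded promoter summit, where the share over all protein-coding genes was 21.1%. The search for 3 units was added after the single motifs had been counted.

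Near the summits themselves, up to 100 bp to either side, 3 units in a row lay at hsp-110, starting 24 bp downstream of the summit, and at hsp-60, starting at −91 bp from it. The element at the hsp-60 summit starts at −697 bp from hsp-60 and is the one in capitals in its sequence above. It is outside the 300 bp before the hsp-60 5′ end. It lies on the Y22D7AL.10 side of the shared summit and so nearer to the 5′ end of Y22D7AL.10. Of the 3340 thresholded summits in promoter windows, 35, or 1.05%, had such an element within that distance. hsp-90 had 2 separate pairs, GAANNTTC 1 bp and TTCNNGAA 64 bp downstream of its summit. hsp-1 had GAANNTTC 39 bp downstream, and hsp-6 had no pair. GAANNTTC alone is common, in 10.1% of these summit windows and in 19% of the 300 bp windows before 5′ ends, and TTCNNGAA was in 9.13% and 18%. TATAAA lay within 100 bp of none of the 5 summits, where 15.5% of the promoter summits had it, and in the 300 bp before the 5′ end of hsp-60, hsp-90, hsp-110, hsp-70 and hsp-16.2, where 39.6% of genes had it. A match describes the letters and does not show that HSF-1 binds there.

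Around these 8 genes, 54 other chaperone and stress genes in 6 lists were measured, and 29 had a thresholded promoter peak, where 21.1% of all protein-coding genes had one. The median signal of those 29 was 441, and that of the 4216 genes with a peak over the whole annotation was 283. The 29 are genes and not separate peaks. They include Y22D7AL.10, which has the peak of hsp-60, and F44E5.4 and F44E5.5, which share 1 peak. With a summit credited to the closest 5′ end alone, 18 of the 54 had a peak, against 16% of all protein-coding genes. The lists were drawn up by known role with earlier results of these data known. The partners of cytosolic HSP70 and HSP90 had peaks at 12 of 13 genes, against the same 21.1%, and 6 of the 12 summits lay nearer to another gene. fkb-6, an immunophilin gene, was highest at 5178, followed by the HSP70 exchange factor gene bag-1 at 1268, the J protein gene dnj-12 at 985 and the HSP90 activator gene ahsa-1 at 818. The fkb-6 summit lay nearer to F31D4.2 and that of ahsa-1 nearer to C01G10.7. cdc-37, which encodes a kinase-recruiting HSP90 partner, had no listed region.

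The mitochondrial partners had peaks at 4 of 7 genes, against 21.1% of all genes, each with its own 5′ end the nearest. Besides Y22D7AL.10, with the summit it shares with hsp-60, they were C34C12.8, which RefSeq names a mitochondrial GrpE homolog and so the exchange factor of mitochondrial HSP70, at 1699, the J protein gene dnj-10 at 498 and the import motor gene tin-44 at 102. C34C12.8 had 804 in replicate 1 and 906 in replicate 2, at −142 bp, with no other gene at its summit. dnj-21, F45G2.8 and hsp-75 had none.

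The list of the mitochondrial unfolded protein response had peaks at 7 of 13 genes, against 21.1% of all genes, and 3 of the 7 summits lay nearer to another gene. None had a signal of 1000 or more, a level that 2.6% of all genes reached. The histone demethylase gene jmjd-1.2 had 857, ubl-5 had 468, and the mitochondrial protease genes spg-7 and ppgn-1 had 363 and 353. The jmjd-1.2 summit lay nearer to F29B9.11 and that of ppgn-1 nearer to tftc-1. atfs-1, named here for its role and not by the naming rule, had 265 at −66 bp, with 111 in replicate 1 and 153 in replicate 2. clpp-1 and dve-1 had no thresholded peak and pooled regions of 53.4 and 28.5.

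Small heat shock protein genes had peaks at 2 of 13, near the share of 21.1% over all genes, so the count is no result about this family. They were sip-1 at 968, with the summit nearer to sly-1, and hsp-12.6 at 340. hsp-12.1 and hsp-12.2 had pooled regions of 26.0 and 52.0. The 3 genes whose products bind or restrain HSF-1, hsb-1, ddl-1 and ddl-2, had neither a thresholded peak nor a pooled region, and with 3 genes no comparison with the 21.1% was made. Replicate 1 alone listed a region of 87.8 at hsb-1 and one of 10.1 at ddl-2.

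Other HSP70 genes had peaks at 4 of 5, against 21.1% of all genes, with 1 peak counted for both F44E5.4 and F44E5.5. hsp-3, an HSP70 gene of the endoplasmic reticulum, had 1507, with 580 in replicate 1 and 929 in replicate 2. As a log2 ratio, its replicates lay farther apart than those of any of the 5 strong peaks above. hsp-4, the stress-induced gene of the same compartment, had a pooled region of 25.1 and no peak. The divergent inducible pair F44E5.4 and F44E5.5 shared a peak of 359, and because these genes are near copies their signal is uncertain. stc-1 had 275.

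**Figure D4:**
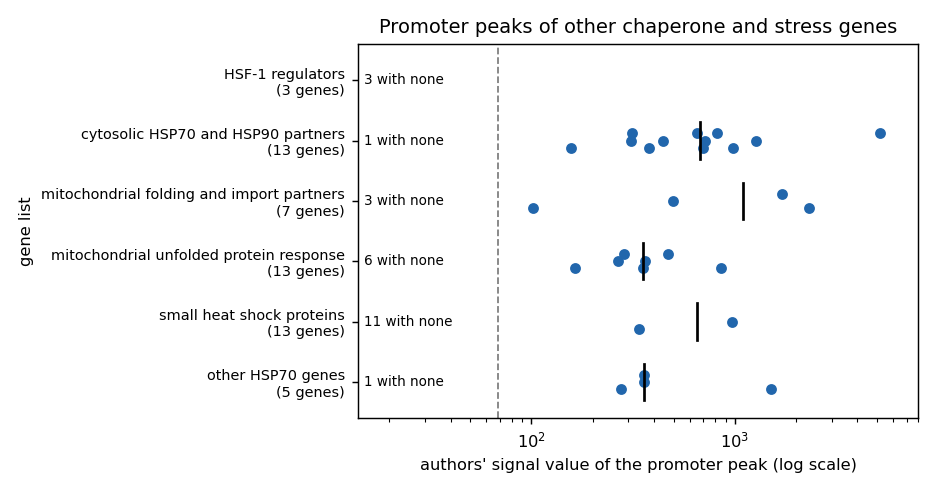
Each blue point is the thresholded promoter peak of 1 gene, by the authors' signal on a log x axis, for 6 lists of related genes, with the list's median as a black bar and the number of genes without a peak at the left. The dashed line is the lowest thresholded signal, 68.8. The cytosolic partners have 1 of 13 genes without a peak, the small heat shock proteins 11 of 13 and the HSF-1 regulators all 3. Over all protein-coding genes, 21.1% have a promoter peak. The small heat shock proteins are near that share, and no comparison was made for the 3 regulators.

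By distance in log2 signal over both replicates, the genes with a promoter peak most like that of hsp-60, of 4123 compared, were snu-23 with 1096 and 1287 in replicates 1 and 2, cdk-5 with 1030 and 1165, and F10G7.9 with 1105 and 1348. The last shares its peak with tsn-1, at the same distance of 0.12. Y22D7AL.10 has the same peak as hsp-60 and was left out of this ranking.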

How the data were processed

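The data are peak lists of eGFP-tagged LSY-2 in 2 biological replicates. The README texts deposited with them state that a replicate's list was made from its alignments and a control, the pooled list from both, and the thresholded list from those 3 by an irreproducible discovery rate analysis. No aligner or peak caller is named in the sources used here. The deposited signal per region was used as it stands, together with −log10 of q and the summit offset in the authors' files. Every thresholded peak carries the same −log10 q, so q did not rank them.

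The deposited ce11 lists were joined to Ensembl release 115 genes, and sequence was read from the RefSeq WBcel235 genome, the same assembly. Summits of replicates were matched within 100 bp. Where Ensembl gives 1 name to several genes, RefSeq symbols were used. The 8 genes and the lists were chosen with earlier results of these data known. The naming rule took all 8 genes, up to 4 genes with the strongest peak and the first 2 by name without one per list, genes that share a summit with the 8, and the 3 nearest to hsp-60 by signal. Outside it, hsb-1, atfs-1, hsp-75, tsn-1 and genes nearer to a listed gene's summit were named after their values were seen. Of 59 listed names, 2 repeated a gene, 1 matched none, and trap-1 and F11F1.1 were left out because those symbols belong to genes other than the chaperones meant, F11F1.1 after its values were seen. No test was made. The summit assignment was checked on placed summits. Python 3.11.15, pandas 2.3.3, numpy 2.4.6, biopython 1.88 and matplotlib 3.10.9 were used.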

Additional observations from a re-analysis of the deposited data

How the results depend on the processing

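The count of genes with a promoter peak depended on how a shared summit was assigned. When a summit counted for the closest 5′ end and no other, it was 1 of 8, hsp-1, against 16% of all protein-coding genes, since the summits of hsp-6, hsp-60 and hsp-110 lay nearer to the neighbour, and 18 of the 54 other genes had a peak against 29. Other planned settings gave 3 to 5 of the 8 genes and 14.6% to 27.1% of all protein-coding genes. The window of 500 bp upstream and 100 bp downstream lost hsp-60, that of 2000 bp and 500 bp added hsf-1, any transcript's 5′ end added hsp-90, and the 6850 strongest regions of replicate 2 alone added hsp-16.2. The stronger 3425 peaks, replicate 1 alone and overlap of intervals left the same 4 genes. Without 1 replicate the 8 genes had 4 to 5 peaks and the other genes 30. Of 64 yes-or-no answers for a gene under a setting, 57 were as in the main one. Many of them could not change. The shorter window, the closest 5′ end and the stronger peaks could only remove a peak. The longer window, any transcript's 5′ end and interval overlap could only add one. The SD of the replicate ratio over all peaks, 0.52, was 0.49 with summits matched within 50 bp and 0.53 within 200 bp, both chosen after seeing the data. No paired analysis was possible because there is 1 group. The lists give no read counts, so a missing region does not show that LSY-2 was absent.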

Other observations

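Sequences up to 50 bp to either side of the 5 strong summits were searched for words of 7 bases, on either strand, held by at least 3 of them, after the peaks were known. CGCGCTC was the 1 such word, at hsp-90, hsp-60 and hsp-1, and 7.72% of the 3340 promoter summits had it in the same length. The search itself required 3 of the 5, so the 7.72% does not measure enrichment. How often any word is shared by 3 such sequences was not measured.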
